A study of Rattus norvegicus with 8 samples.

Results

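The antioxidant enzymes described here are 8 of the 4736 genes that the array names singly, measured in a rat knee ligament, the medial collateral: Gpx1, Gpx3, Sod1, Sod2, Sod3, Cat, Prdx1 and Hmox1. They were taken as every probe set that carries 1 of these symbols and no other, 17 of the 8799 on the array: 3 each for Gpx1, Sod1 and Cat, 2 each for Gpx3, Sod3 and Hmox1, and 1 each for Sod2 and Prdx1. The study asked how hindlimb unloading, in which the tail is suspended so that the hind legs bear no weight, alters ligament healing. RNA from the ligament was hybridised to 8 one-colour arrays, 2 in each of 4 groups, all taken at 3 weeks. Unloaded healing rats had both medial collateral ligaments disrupted and were suspended from 24 h after surgery, and loaded healing rats had the same injury and bore weight. Unloaded control rats were suspended without any operation, while loaded control rats had sham surgery and bore weight, so unloading and the lack of sham surgery cannot be told apart between the control groups. Strain, sex and age are not given in the labels, nor is whether the arrays of a group came from separate animals, so the errors and p-values below measure the spread between arrays, which may be technical.

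Antioxidant enzymes act in sequence. Superoxide dismutases turn superoxide into hydrogen peroxide, Sod1 in the cytosol, Sod2 in mitochondria and Sod3 in the extracellular matrix. Catalase, glutathione peroxidases and peroxiredoxins then reduce the peroxide to water, and heme oxygenase 1, encoded by Hmox1, breaks down heme and is a classical stress-induced enzyme. Gpx1 is the cytosolic and Gpx3 the secreted extracellular glutathione peroxidase, and both are selenoproteins. Injured tissue is exposed to oxidants from phagocytes, which is the setting in which these enzymes are usually studied in healing.

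Values are linear signal intensities per probe set as deposited, already scaled between arrays by the authors, with array medians between 238.7 and 315.9. The unloaded control arrays stood apart: each correlated with arrays of the remaining groups at a Pearson r between 0.695 and 0.757 on the log2 scale, while those 6 arrays correlated among themselves at 0.822 to 0.894. The labelled tissue was checked against cell type markers. In the unloaded controls the summed signal of 11 ligament fibroblast markers was 6953.3 to 8506.1, against 74986.6 to 152148.5 on the other arrays, with 9 of the 11 below every other array and 0 at a signal of 0. Col1a1, which encodes a chain of type I collagen, read 699.0 and 763.1 on the unloaded control arrays, against 75948.8 and 59573.3 on the loaded control arrays. Macrophage and skeletal muscle marker sums were also below every other array. Endothelial marker sums were above, at 8274.4 and 8995.2 against at most 7502.7 elsewhere. Adipocyte marker sums were above too, at 18667.5 and 18713.6 against at most 17716.4. Erythroid marker sums lay within the range of the other arrays. The ratio of 5' to 3' beta-actin signal was 0.964 and 0.634 in unloaded controls, against 0.237 to 0.529 on the other arrays. The 3' actin signal itself was 1283.9 and 1493.7 in unloaded controls. For GAPDH the ratio was 0.953 and 0.712, on either side of the 0.729 to 0.896 of the other arrays. The 99th percentile of signal was 5494 and 5584 in unloaded controls, against 9218 to 11290. The labels do not settle whether these arrays hold ligament RNA of the same quality or tissue make-up as the others. Every comparison below that uses the unloaded controls therefore rests on arrays in which the defining ligament transcripts were low, and the part of this in each result was not tested.

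Both glutathione peroxidase genes gave every call among the members, and the stretches just before the start of their transcripts are shown for that reason. The other stretches are those of the Sod2 and Prdx1 promoters, the 2 among the 6 searched that held a match to the antioxidant response element, the sequence bound by the stress factor Nrf2. The sequences are from RefSeq, build GRCr8, 5′ to 3′ on the gene's own strand, and capitals mark a match to the element's core, TGACNNNGC, found in both on the strand opposite the gene.
Prdx1, chr5:135383741-135383805, plus strand: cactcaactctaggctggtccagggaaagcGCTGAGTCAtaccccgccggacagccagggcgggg
Sod2, chr1:50050169-50050233, minus strand: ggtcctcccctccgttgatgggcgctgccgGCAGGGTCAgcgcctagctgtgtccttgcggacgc
Gpx1, chr8:117905362-117905461, plus strand: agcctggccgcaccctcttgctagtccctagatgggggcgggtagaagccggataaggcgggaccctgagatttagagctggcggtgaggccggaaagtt
Gpx3, chr10:39529235-39529334, plus strand: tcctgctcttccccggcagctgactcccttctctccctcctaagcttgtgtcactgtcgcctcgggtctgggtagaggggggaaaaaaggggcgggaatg
Windows of 300 bases, 250 before and 50 after the transcript start, were matched for 6 of the 8 genes. On either strand the core occurred in 12.1% of all 33469 promoter windows. The motif of the factor AP-1, TGAGTCA, was found in 4.63% of them. It had 2 matches in the Prdx1 window, 1 of which overlaps the capitals above, and 0 in the windows of Gpx1, Gpx3, Sod1, Sod2 and Cat. A match is a description of the letters in this window and not a site.

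Differences were tested with limma on log2(signal + 45.8), and Benjamini-Hochberg adjustment covered all 5244 probe sets left after the dimmest 40% were set aside; a call is an adjusted p under 0.05. Of the 17 members 14 passed this filter. The other 3 had a mean below the filter's limit: M21210_i_at of Gpx1 lay between 41.4 and 89.4, X68041cds_s_at of Sod3 between 45.1 and 143.3, and J02722cds_at of Hmox1 between 34.0 and 200.7. Each of these genes had at least 1 brighter probe set, and in a fit without the filter 0 of the 3 were called in any of the 6 comparisons (lowest limma adjusted p = 0.346, 0 of 18 tests at an unadjusted p under 0.05). Fold changes and standard errors (SE) include the offset of 45.8, which shrinks those of dim probe sets.

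**Figure D1:**
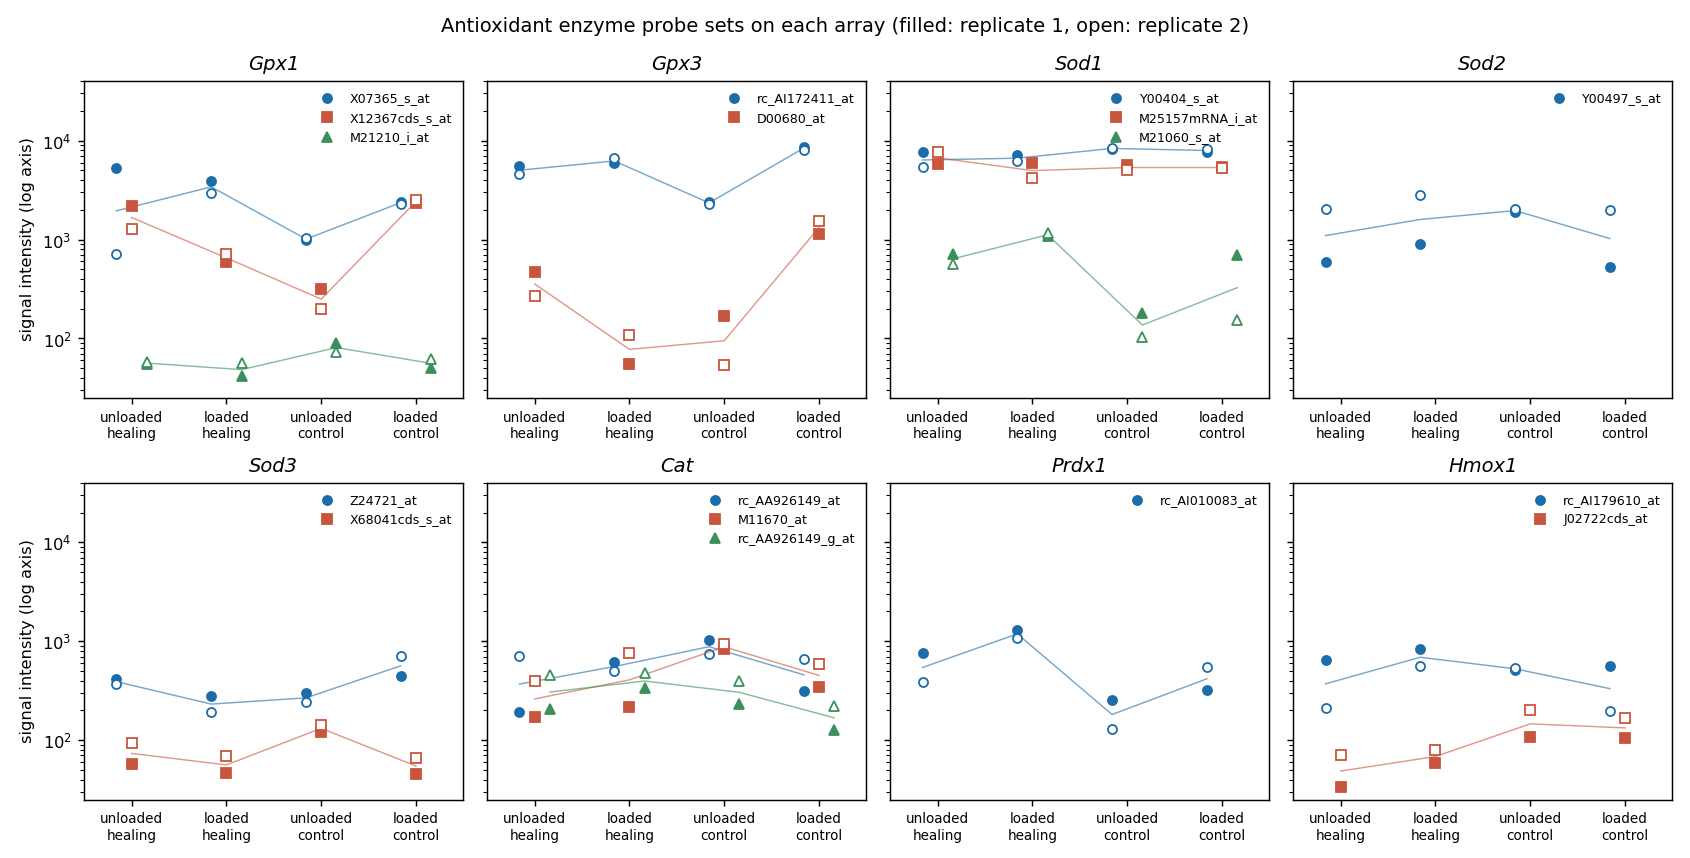
Signal intensity (log axis) of each of the 17 probe sets on the 8 arrays, with a panel for each gene, a colour and symbol for each probe set, filled symbols for replicate 1 and open symbols for replicate 2, and lines through the geometric means of the groups. Both Gpx3 probe sets and X12367cds_s_at of Gpx1 were highest in the loaded controls, the 2 bright Sod1 probe sets lay between 4175.0 and 8433.3 on all arrays, and Sod2 was lower on replicate 1 than on replicate 2 in every group.

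Gpx3 was highest in the loaded sham ligaments on both of its probe sets, but the sets differed in the size of the drop. The brighter set, rc_AI172411_at, read 5526.7 and 4551.9 in unloaded healing, 5868.8 and 6612.2 in loaded healing, 2400.2 and 2294.2 in unloaded controls, and 8689.7 and 8127.6 in loaded controls. Here no pair of groups overlapped, with loaded controls first, then loaded healing, unloaded healing and unloaded controls. The dimmer set, D00680_at, read 468.0 and 270.6 in unloaded healing, 55.0 and 109.3 in loaded healing, 167.5 and 53.7 in unloaded controls, and 1131.8 and 1549.1 in loaded controls. On this set loaded controls were again first and unloaded healing second, while loaded healing and unloaded controls overlapped. The loaded healing arrays read second on 1 set and shared the lowest place on the other.

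The gap between the Gpx3 sets within each array was 3.44 and 3.86 log2 units in unloaded healing, 5.87 and 5.42 in loaded healing, 3.52 and 4.56 in unloaded controls, and 2.89 and 2.36 in loaded controls. The D00680_at signals behind the widest gaps, 55.0 and 109.3 in loaded healing and 53.7 on unloaded control 2, are close to the offset of 45.8, so the size and the order of these gaps depend on it. Between loaded healing and loaded controls the mean gap differed by 3.03 log2 units (5.65 against 2.62), at p = 0.333 in a two-sided exact permutation test, the smallest value that 2 arrays against 2 can give. Over the 8 arrays the log2 signals of the sets had a Pearson correlation of 0.628. Both sets carry the symbol Gpx3, and which of them follows its transcript more closely was not tested.

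**Figure D2:**
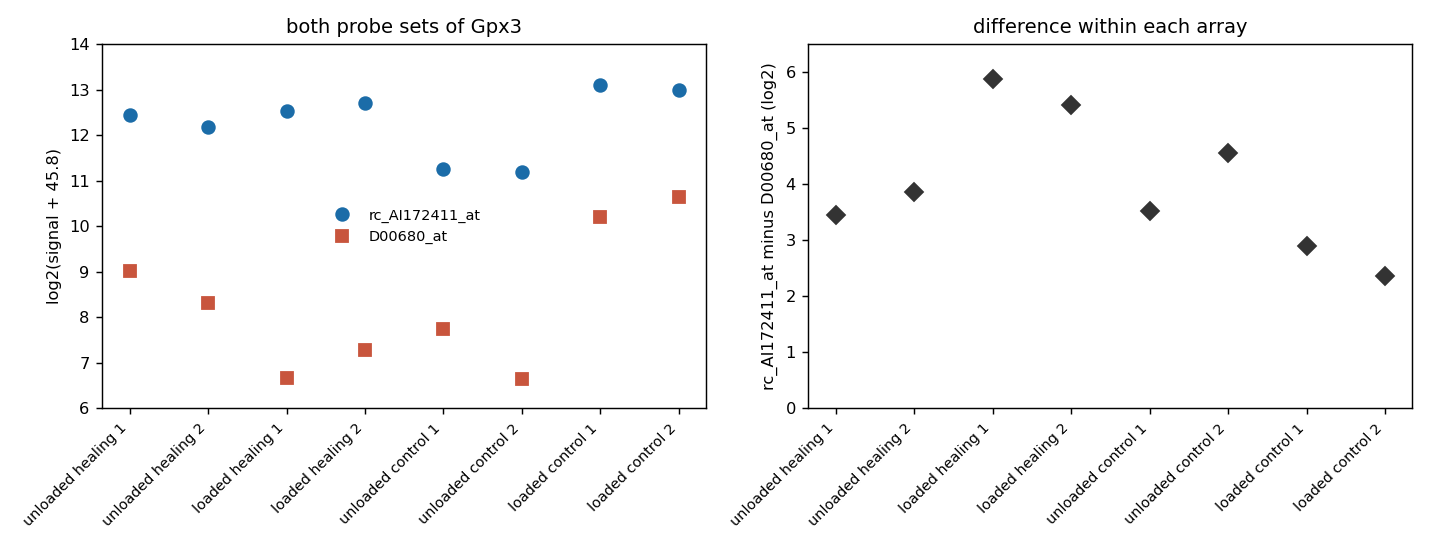
Left, log2(signal + 45.8) of the Gpx3 probe sets on each of the 8 arrays, with circles for rc_AI172411_at and squares for D00680_at. Right, the first minus the second within each array: the loaded healing arrays lay at 5.87 and 5.42, above the others at 2.36 to 4.56, with D00680_at there close to the offset.

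In loaded rats, the dimmer Gpx3 set and a Gpx1 set fell with injury. D00680_at of Gpx3 fell in loaded healing against loaded controls by a log2 difference of -3.45 ± 0.58 SE (limma adjusted p = 0.0143, with n = 2 in each group throughout). This set passed the filter only through the loaded controls, since its mean log2 over the other groups, 7.6, lay below the limit of 7.89, and without the filter its adjusted p was 0.03. The loaded healing arrays, at 55.0 and 109.3, were within the range of the sets set aside as dim, so the size of the difference depends on the offset: it was -4.09 with a floor in place of the offset and -2.52 with an offset 4 times as large. No fold is given for this set. The brighter Gpx3 set was also lower on both healing arrays, with a log2 difference of -0.43 ± 0.18, and was not called (adjusted p = 0.357). X12367cds_s_at of Gpx1 fell 3.54-fold (-1.82 ± 0.36, adjusted p = 0.0322). In these bulk ligaments, fewer cells that carry a transcript and less transcript per cell cannot be told apart. Of the 14 members tested 2 fell, 1 of them D00680_at, and 0 rose, while 2.02% of all probe sets were called, 0.992% lower and 1.03% higher (52 and 54 probe sets, and 22 and 84 with spike-in scaling). The groups did not overlap for 10 members, 5 lower and 5 higher, beside 39.7% of all probe sets, 20.3% lower and 19.4% higher. The median of the members was 0.07, against -0.03 for all.

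The loaded healing calls rested on all 4 arrays compared. Without loaded control 1, loaded control 2, loaded healing 1 and loaded healing 2 in turn, the adjusted p of D00680_at was 0.0958, 0.153, 0.130 and 0.0669, and that of X12367cds_s_at 0.174, 0.194, 0.224 and 0.131. In these fits the log2 differences lay between -3.77 and -3.14 for the first and between -1.96 and -1.69 for the second. Without the unloaded controls both calls held, at adjusted p = 0.0115 and 0.0199. The Gpx1 call also ended with median centring (0.0553), spike-in scaling (0.0705), no filter (0.0633) and a prior without the intensity trend (0.119). Macrophage and myeloid markers moved with the same arrays: 13 of them summed to 51040.4 and 41171.8 on the loaded healing arrays and to 9549.8 and 9182.5 on the loaded control arrays, with 6 of the 10 tested called higher. Of the 11 fibroblast markers 3 were called lower (Sparc, Bgn and Comp) and 0 higher, with a median log2 difference of 0.1. The part of either list in the result was not tested. The actin 3' control probe set was at 1353.1 and 1596.6 on the loaded healing arrays and at 4393.3 and 4955.3 on the loaded control arrays. The GAPDH 3' control was at 1038.5 and 842.6 on the loaded healing arrays and at 2277.5 and 2334.6 on the loaded control arrays. The part of these control probe sets was not tested either.

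Gpx1 gave a different picture on each of its bright sets. X12367cds_s_at read 2199.1 and 1269.2 in unloaded healing, 588.4 and 722.2 in loaded healing, 315.6 and 197.9 in unloaded controls, and 2366.5 and 2486.3 in loaded controls. Its groups did not overlap, in the order loaded control, unloaded healing, loaded healing and unloaded control, with the first pair close on unloaded healing 1. X07365_s_at read 5265.2 and 721.9 in unloaded healing, 3909.8 and 2969.7 in loaded healing, 979.0 and 1042.7 in unloaded controls, and 2416.2 and 2305.3 in loaded controls. On this set both loaded healing arrays lay above the loaded controls, opposite in sign to X12367cds_s_at, at 0.52 ± 0.67 (adjusted p = 0.881). Unloaded healing held both the highest and the lowest value of X07365_s_at. Over the 8 arrays the log2 signals of these sets had a Pearson correlation of 0.454.

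The split of unloaded healing decided the values of X07365_s_at. With all arrays, unloaded minus loaded healing was -0.77 ± 0.67 (adjusted p = 0.755) and unloaded healing minus unloaded control 0.94 ± 0.67 (0.482), with an interaction of 0.41 ± 0.94 (0.913). Without unloaded healing 1 the first was -2.17 ± 0.29 and called (limma adjusted p = 0.0126), and the second turned to -0.46 ± 0.29 (0.483), while the interaction was -0.98 ± 0.38 (0.279). Without unloaded healing 2 the first turned to 0.62 ± 0.27 (0.466), the second was 2.33 ± 0.27 and called (0.000528), and so was the interaction, at 1.81 ± 0.35 (0.0165). The remaining unloaded healing array is assumed to vary like the other groups in these fits. On unloaded healing 2 the BioB-3, BioB-5 and BioB-M spike-in probe sets read 1098.9, 873.3 and 761, below every other array. The unloaded control arrays were next lowest on BioB-5, at 3323.5 and 2597.4, and on BioB-M, at 7547.8 and 5443.4. The remaining arrays read 5940.1 to 12801.1 and 14896 to 27208.1. BioB was not used in the spike-in scaling, and its bearing on these arrays was not tested.

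**Figure D3:**
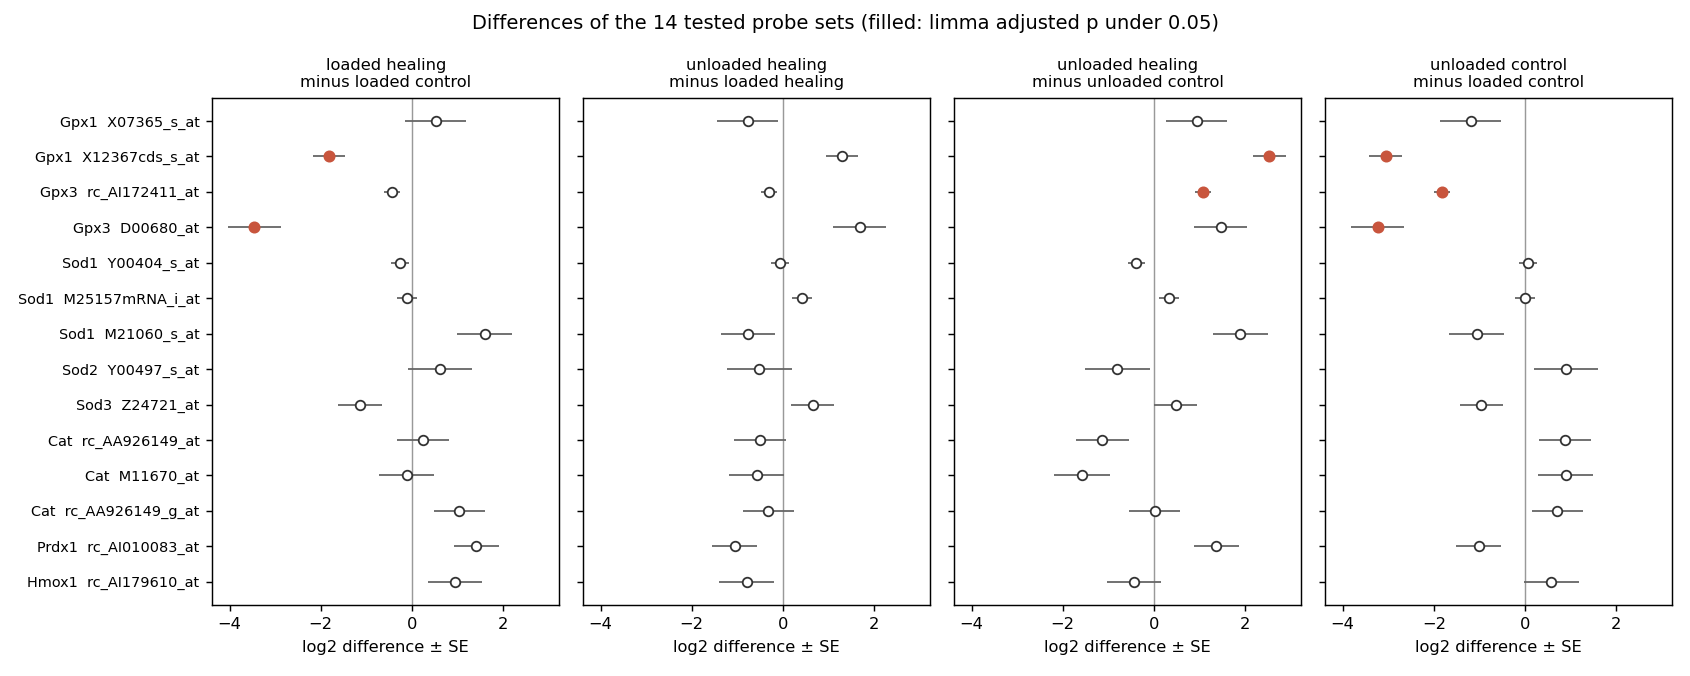
Log2 differences with SE of the 14 tested probe sets in 4 comparisons, with filled points for those at limma adjusted p under 0.05. X12367cds_s_at of Gpx1 is filled in all comparisons but that of the healing groups, D00680_at of Gpx3 in both comparisons against loaded controls, and rc_AI172411_at of Gpx3 in both comparisons with unloaded controls.

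Among healing ligaments, 0 of the 14 tested members were called between unloaded and loaded rats, while 1.62% of all probe sets were, 0.763% higher and 0.858% lower (40 and 45 probe sets, and 18 and 119 with spike-in scaling). The groups did not overlap for 6 members, 3 higher and 3 lower, beside 39.7% of all probe sets, 21.3% higher and 18.4% lower. With limma, 2 members had an unadjusted p under 0.05: X12367cds_s_at of Gpx1 was 1.30 ± 0.36 higher (adjusted p = 0.140) and D00680_at of Gpx3 was 1.69 ± 0.58 higher (0.272), without overlap between the groups. The brighter Gpx3 set differed by -0.31 ± 0.18, also without overlap (0.588). The Prdx1 set differed by -1.06 ± 0.50 (0.496). Of the macrophage markers 6 of 10 were called lower here, with sums of 10934.9 and 11120.7 in unloaded healing and 51040.4 and 41171.8 in loaded healing. The actin 3' control was at 4786.3 and 5235.2 in unloaded healing and at 1353.1 and 1596.6 in loaded healing. The GAPDH 3' control was at 1948 and 1871.8 in unloaded healing and at 1038.5 and 842.6 in loaded healing. The part of the markers and of these controls in these differences was not tested. In all, 4 members were higher and 10 lower, with a median of -0.41, against 0.06 for all probe sets.

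Between the control groups, unloaded ligaments read far lower on the same 3 sets. The brighter Gpx3 set fell 3.53-fold in unloaded against loaded controls (log2 -1.82 ± 0.18, limma adjusted p = 4.94e-05) and X12367cds_s_at of Gpx1 fell 8.33-fold (-3.06 ± 0.36, adjusted p = 0.000212). D00680_at fell by a log2 difference of -3.23 ± 0.58 (adjusted p = 0.00564), or -3.8 with the floor and -2.39 with the larger offset, with the same limits on its filter and its dim group as above. Of the 14 tested members 3 fell and 0 rose, while 6.81% of all probe sets were called, 6.22% lower and 0.591% higher (326 and 31 probe sets, and 385 and 205 with quantile normalization). The groups did not overlap for 9 members, 6 lower and 3 higher, beside 51.1% of all probe sets, 17.2% lower and 34% higher. The median of the members was -0.48, against 0.23 for all. The call of D00680_at ended without loaded control 2 (adjusted p = 0.0614) and without unloaded control 2 (0.058). X07365_s_at of Gpx1 differed by -1.19 ± 0.67 and was not called (0.406), but it was called without unloaded healing 1 (0.0154), without unloaded healing 2 (0.0103) and in a fit to both control groups alone (0.0292). This comparison is the one in which the fibroblast markers had a median difference of -3.78 log2 units, with 10 of 11 called lower and 0 higher. Of the macrophage markers 3 of 10, and of the muscle markers 2 of 11, were also called lower, with the muscle list summing to 5805.5 and 6373.9 in unloaded controls and 11070.5 and 11170 in loaded controls. The actin 3' control was at 1283.9 and 1493.7 in unloaded controls and at 4393.3 and 4955.3 in loaded controls. The GAPDH 3' control overlapped, at 1885.6 and 2283.3 in unloaded controls and at 2277.5 and 2334.6 in loaded controls. The part of these markers and of these control probe sets in the 3 calls was not tested.

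In unloaded rats, 1 probe set each of Gpx1 and Gpx3 was higher in healing ligaments than in controls. These controls had no operation, so injury and surgery as such cannot be told apart here. X12367cds_s_at rose 5.79-fold (log2 2.53 ± 0.36, limma adjusted p = 0.000897) and the brighter Gpx3 set rose 2.12-fold (1.08 ± 0.18, adjusted p = 0.00271). The dimmer Gpx3 set was 1.47 ± 0.58 higher and not called, and X07365_s_at of Gpx1 overlapped between the groups. Of 14 tested members 2 rose and 0 fell, while 7.46% of all probe sets were called, 6.41% higher and 1.05% lower (336 and 55 probe sets, and 390 and 237 with quantile normalization). The groups did not overlap for 10 members, 7 higher and 3 lower, beside 52.2% of all probe sets, 18.7% higher and 33.5% lower. The Gpx3 call ended with a prior without the intensity trend (adjusted p = 0.0854). Fibroblast markers were higher here by a median of 2.47, with 8 of 11 called, as were 4 of 10 macrophage, 4 of 11 skeletal muscle and 2 of 5 erythroid markers. The actin 3' control was at 4786.3 and 5235.2 in unloaded healing and at 1283.9 and 1493.7 in unloaded controls. The part of these markers and of this control in the rises was not tested.

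Healing minus control differed between unloaded and loaded rats for the same 3 sets. Only the loaded controls had sham surgery, so a changed effect of injury cannot be told apart from that difference between the controls. The interaction, healing minus control in unloaded rats less the same in loaded rats, was 4.36 ± 0.50 for X12367cds_s_at (limma adjusted p = 0.000269), 1.51 ± 0.25 for the brighter Gpx3 set (0.00361) and 4.92 ± 0.82 for the dimmer one (0.00393). The last was 6 with the floor and 3.43 with the larger offset. The dimmer set passed the filter only through the loaded controls, which the interaction holds, and without the filter its limma adjusted p was 0.00818. Of 14 members 3 were higher and 0 lower, while 4.84% of all probe sets were called, 4.52% higher and 0.324% lower (237 and 17 probe sets, 251 and 80 with quantile normalization, and 184 and 48 with spike-in scaling). The brighter Gpx3 set lost its call with spike-in scaling (0.92, adjusted p = 0.191) and with a prior without the intensity trend (0.129). As it holds the unloaded controls, the interaction shares their low ligament signal. The actin 3' control read 4786.3 and 5235.2 in unloaded healing, 1353.1 and 1596.6 in loaded healing, 1283.9 and 1493.7 in unloaded controls, and 4393.3 and 4955.3 in loaded controls. It was thus higher in healing than in controls in unloaded rats and lower in loaded rats, as on the 3 sets. The GAPDH 3' control read 1948 and 1871.8 in unloaded healing and 1885.6 and 2283.3 in unloaded controls, with overlap. In loaded rats it read 1038.5 and 842.6 in healing and 2277.5 and 2334.6 in controls. The part of either control in the interaction was not tested. In unloaded healing against loaded controls, which uses neither the unloaded controls nor loaded healing, 0 of 14 members were called, with 2 at an unadjusted limma p under 0.05, while 0.0763% of all probe sets were called, 0.0572% higher and 0.0191% lower (3 and 1 probe sets, 3 and 3 with quantile normalization, and 1 and 0 with median centring or spike-in scaling). The groups did not overlap for 6 members, 1 higher and 5 lower, beside 32.3% of all probe sets, 17.6% higher and 14.6% lower. There the brighter Gpx3 set was -0.74 ± 0.18 (adjusted p = 0.356), the dimmer one -1.77 ± 0.58 (0.740) and X12367cds_s_at -0.53 ± 0.36 (0.953), each lower in both unloaded healing arrays.

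Of the superoxide dismutases, 0 probe sets were called in any of the 6 comparisons. With limma, 2 of the 5 tested had an unadjusted p under 0.05 in 1 or more of them: M21060_s_at of Sod1 and Z24721_at of Sod3. The bright Sod1 sets stayed close on all arrays. Y00404_s_at read 7580.5 and 5347.9 in unloaded healing, 7100.9 and 6209.3 in loaded healing, 8238.1 and 8433.3 in unloaded controls, and 7610.7 and 8290.9 in loaded controls. M25157mRNA_i_at lay between 4175.0 and 7758.2. With SEs of 0.19 and 0.22, these sets had the narrowest errors of the Sod members, and their differences lay between -0.39 and 0.43 in the pairwise comparisons.

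The third Sod1 set, M21060_s_at, varied far more than the bright ones. It read 721.6 and 563.5 in unloaded healing, 1078.0 and 1158.1 in loaded healing, 180.3 and 103.6 in unloaded controls, and 693.4 and 153.4 in loaded controls. Loaded healing was highest and the loaded controls disagreed with each other. Its difference was 1.60 ± 0.60 in loaded healing against loaded controls (limma adjusted p = 0.302) and 1.9 ± 0.60 in unloaded healing against unloaded controls (0.101). The second of these was called without loaded control 1 (0.0386) and without loaded control 2 (0.0254). Its log2 signal ran against that of Y00404_s_at over the 8 arrays, with a Pearson correlation of -0.633. Quantile normalization changed the bright sets: in unloaded against loaded controls Y00404_s_at was called at 1.06 and M25157mRNA_i_at at 0.87, beside 0.07 and 0.00 on the deposited scale and -0.17 and -0.24 with median centring. It also called Y00404_s_at lower in unloaded healing than in unloaded controls (-1.41, limma adjusted p = 0.000187) and in the interaction (-1.11, 0.0162).

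Sod2, the mitochondrial enzyme, varied with replicate number more than with group. Its set read 592.6 and 2028.0 in unloaded healing, 892.6 and 2848.7 in loaded healing, 1901.0 and 2024.9 in unloaded controls, and 531.2 and 1969.6 in loaded controls. Replicate 1 was lower than replicate 2 in each group, by the least in unloaded controls. The difference of loaded healing against loaded controls was 0.61 ± 0.71, and with replicate number as a block the SE was 0.40 (limma adjusted p = 0.607). Kdr, an endothelial receptor gene, had the pattern most like it, with a Pearson correlation of 0.969 over the 8 arrays, and read 244.7 and 3545.9 in unloaded healing and 130.9 and 3104.5 in loaded controls.

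Sod3, the extracellular form, was highest in the loaded controls on its brighter set, and it was not called in any comparison. Z24721_at read 412.2 and 369.5 in unloaded healing, 276.8 and 193.8 in loaded healing, 296.8 and 241.5 in unloaded controls, and 445.2 and 715.9 in loaded controls. Loaded controls were above all other arrays. The log2 difference was -1.14 ± 0.47 for loaded healing against loaded controls (limma adjusted p = 0.368) and 0.65 ± 0.47 for unloaded against loaded healing (0.701). Its closest pattern was that of Ppib, an isomerase of the endoplasmic reticulum, at a Pearson correlation of 0.943.

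Of the other peroxide-removing enzymes, Cat and Prdx1, 0 sets were called in any comparison, with unadjusted limma p under 0.05 for M11670_at of Cat and for the Prdx1 set. Prdx1, a cytosolic peroxiredoxin that uses thioredoxin, read 769.3 and 382.8 in unloaded healing, 1299.5 and 1082.9 in loaded healing, 256.1 and 128.9 in unloaded controls, and 319.4 and 544.7 in loaded controls. Loaded healing was above every other array and unloaded controls below. The difference was 1.41 ± 0.50 for loaded healing against loaded controls (limma adjusted p = 0.251) and 1.36 ± 0.50 for unloaded healing against unloaded controls (0.159), with an interaction of -0.04 ± 0.70. These values go the opposite way to the glutathione peroxidase calls in loaded rats. The closest pattern to Prdx1 was that of Nap1l1, a histone chaperone gene, at 0.963, and Postn, which encodes the matrix protein periostin, was at 0.959.

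Catalase, the peroxisomal enzyme, was measured by 3 tested sets, of which M11670_at and rc_AA926149_at were higher on both unloaded control arrays than on any other array. M11670_at read 170.8 and 399.0 in unloaded healing, 215.5 and 769.2 in loaded healing, 829.2 and 933.5 in unloaded controls, and 343.1 and 593.0 in loaded controls. Replicate 1 was the lower in each group. The rc_AA926149_at set lay between 191.5 and 1038.5 and the rc_AA926149_g_at set, named for the same sequence entry, between 127.0 and 471.9. In unloaded against loaded controls the rc_AA926149_at set differed by 0.87 ± 0.58, M11670_at by 0.89 ± 0.61 and the rc_AA926149_g_at set by 0.71 ± 0.56, each without overlap between the groups. They were not called (limma adjusted p = 0.481, 0.494 and 0.564). In this comparison 34% of all probe sets were higher without overlap, and the median log2 difference of all was 0.23. In unloaded healing against unloaded controls M11670_at was -1.58 ± 0.61 (limma adjusted p = 0.185).

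Hmox1 showed no call in any comparison and no unadjusted limma p under 0.05 on its tested set. The set rc_AI179610_at read 651.0 and 211.6 in unloaded healing, 841.9 and 563.8 in loaded healing, 514.7 and 538.2 in unloaded controls, and 562.0 and 195.9 in loaded controls. Both loaded healing arrays were above both arrays of each control group, by a narrow margin, and the difference from loaded controls was 0.94 ± 0.60 (limma adjusted p = 0.638). The dim set J02722cds_at ran the other way, at 58.2 and 80.3 on the loaded healing arrays and 106.4 and 166.4 on the loaded control arrays.

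The genes whose signal most resembled the called sets included matrix, ribosomal and cytoskeletal genes. Over the 8 arrays, the brighter Gpx3 set was closest to Fmod, which encodes the small proteoglycan fibromodulin, at a Pearson correlation of 0.964, to the collagen crosslinking enzyme gene Lox at 0.963 and to Atp5f1d, an ATP synthase subunit, at 0.960. X12367cds_s_at of Gpx1 was closest to Igfbp6 at 0.975, to the ribosomal protein gene Rpl18 at 0.972 and to the small proteoglycan gene Bgn at 0.970. D00680_at of Gpx3 was closest to the actin-binding profilin gene Pfn1 at 0.938, then Kcnh4 at 0.909 and Igfbp6 at 0.899. These are the highest of 3220 genes compared, the points share the low unloaded control arrays, and the values are a description.

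The wider redox system was read on 48 genes of a list of 77, of which 35 passed the filter. In loaded healing against loaded controls 2 of the 35 rose and 0 fell, against 1.03% of all probe sets higher: Selenop, the selenium carrier selenoprotein P (log2 1.91 ± 0.41, limma adjusted p = 0.0485), and Mt3, a metallothionein (1.88 ± 0.31, adjusted p = 0.0135). Selenop read 1044.8 and 906.9 in unloaded healing, 1940.8 and 1737.9 in loaded healing, 26.4 and 29.1 in unloaded controls, and 565.7 and 362.1 in loaded controls. It was thus highest in loaded healing, where X12367cds_s_at and both Gpx3 sets lay below the loaded controls. The other bright Gpx1 set, X07365_s_at, lay above them there, at 3909.8 and 2969.7 against 2416.2 and 2305.3. Gpx4, the membrane lipid glutathione peroxidase, read 630.4 and 670.4 in unloaded healing, 75.8 and 320.5 in loaded healing, 99.5 and 165.0 in unloaded controls, and 695.5 and 900.1 in loaded controls. As on the dimmer Gpx3 set, loaded controls were first and unloaded healing second, with an overlap of the other groups, and its interaction was called (3.98 ± 0.83, adjusted p = 0.0177).

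Across the other comparisons of the redox list, 0 of 35 were called by limma between unloaded and loaded healing, with 7 at an unadjusted p under 0.05, and 0 between unloaded healing and loaded controls, with 4. In unloaded healing against unloaded controls 5 rose and 0 fell, beside 6.41% of all probe sets higher, led by Selenop (3.79 ± 0.41), Mt3 (3.48 ± 0.31), the aldehyde reductase gene Akr1a1 (2.79 ± 0.29) and Idh1, which makes cytosolic NADPH (2.61 ± 0.47). Between unloaded and loaded controls 6 fell and 0 rose, beside 6.22% of all probe sets lower, led by Akr1a1 (-3.04 ± 0.29), Selenop (-2.76 ± 0.41), Mt3 (-2.51 ± 0.31) and Xdh, the xanthine dehydrogenase that can itself form superoxide (-2.36 ± 0.59). For the interaction 2 of 35 were higher and 0 lower, beside 4.52% of all probe sets higher: Gpx4 and Akr1a1 (3.10 ± 0.42). The medians of the list were 0.07, -0.19, 0.03, 0.01 and -0.28 in loaded healing, in unloaded against loaded healing, in unloaded healing against unloaded controls, between controls and for the interaction, against -0.03, 0.06, -0.23, 0.23 and -0.16 for all probe sets.

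**Figure D4:**
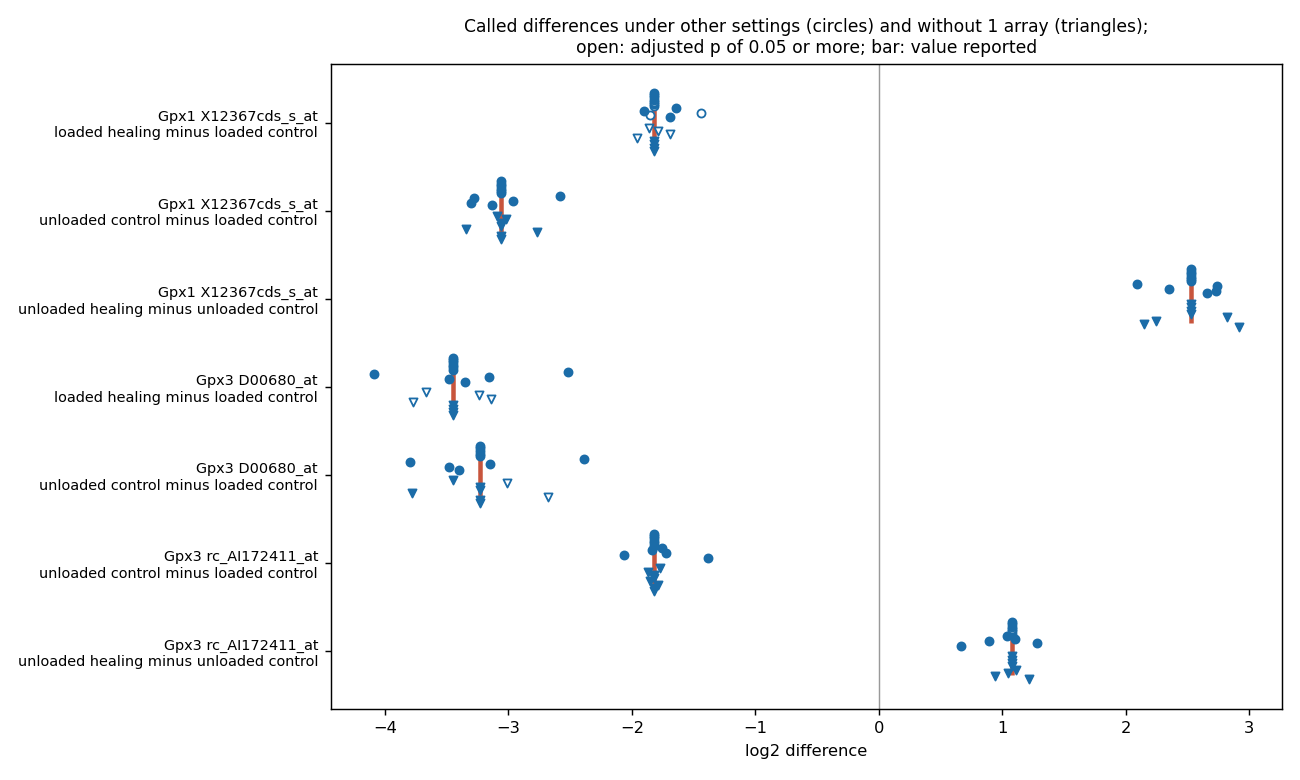
Log2 differences of the 7 called pairwise results under other settings (circles) and without 1 array (triangles), with open symbols at an adjusted p of 0.05 or more and a bar at the value reported. Every value kept its sign, and the calls in loaded healing were open wherever a loaded array was left out.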

How the data were processed

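The deposited table holds 1 linear signal intensity per probe set and array, which the authors had scaled between arrays: by the values, each array's 2% trimmed mean fell at 500.3 to 500.6. Which software summarised the probes is not stated in the labels. Symbols were read from the platform annotation, in which 7018 probe sets had 1 symbol, 308 several and 1473 none, and 0 of the several held a member. All 17 members matched the RefSeq table by Entrez identifier, with 0 symbols changed.

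After removing 59 control probe sets, an offset of 45.8, the 10th percentile of the signals, preceded the log2 step, and the dimmest 40% by mean over all arrays were removed, a limit equal to a signal of about 190.6. limma 3.58.1 (R 4.3.3) estimated a mean for each of the 4 groups, with an intensity trend in the prior, 4 residual and 5.81 prior degrees of freedom, and 6 contrasts. It was also run on simulated data with independent normal noise. That run could not test the unloaded control arrays, the offset or the filter. Tests were two-sided. The number of arrays limits the precision.

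The members, lists and tests were chosen with earlier results of these data known. Named were all members, per contrast up to 4 called genes of the redox list in each direction, and the 3 genes most like a member set by Pearson correlation, of which those nearest the described sets are given. Kdr, Gpx4 and Selenop values by array, and Col1a1 for the tissue check, were chosen after their values were seen. Alternatives were quantile, median and spike-in scaling (BioC, BioDn and CreX, 6 probe sets), a floor in place of the offset, an offset 4 times as large, no filter, a filter at 60%, other priors, a replicate block, fewer groups and leaving out each array.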

Additional observations from a re-analysis of the deposited data

Results flagged for a closer look

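Healing minus control differed between unloaded and loaded rats, by limma's interaction term, on 3 probe sets: 4.36 ± 0.50 for X12367cds_s_at of Gpx1 (adjusted p = 0.000269), 1.51 ± 0.25 for rc_AI172411_at of Gpx3 (0.00361) and 4.92 ± 0.82 for D00680_at of Gpx3 (0.00393). The last had several arrays near the offset and lay between 3.43 and 6 with other offsets. It passed the filter only through the loaded controls, which the interaction holds. Only the loaded controls had sham surgery, so a changed effect of injury cannot be told apart from that difference between the controls. On X12367cds_s_at, both unloaded healing arrays were above both unloaded controls and both loaded healing arrays below both loaded controls, and the same held for both Gpx3 sets. All 3 values include the unloaded control arrays, on which 11 ligament fibroblast markers summed to 6953.3 to 8506.1, against 74986.6 to 152148.5 elsewhere. The actin 3' control was also higher in healing than in controls in unloaded rats and lower in loaded rats. The GAPDH 3' control was lower in healing in loaded rats, but overlapped between healing and controls in unloaded rats. The part of the markers and of these controls in the interaction was not tested.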

How the results depend on the processing

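The count of members called in loaded healing was 2, and 1 with median centring, spike-in scaling, no filter, a filter at 60% (which removed D00680_at) and a prior without the intensity trend, and 0 to 2 without 1 array. Between controls it was 3, all lower, and 5 with quantile normalization (2 higher, 3 lower), where M25157mRNA_i_at of Sod1 changed sign to 0.87, and 2 to 4 without 1 array. It was 2 in unloaded healing against unloaded controls, 1 with a prior without the trend, 3 with quantile normalization (2 higher, 1 lower) and 2 to 3 without 1 array. For the interaction it was 3, 2 to 4 under other settings and 3 to 4 without 1 array. Between unloaded and loaded healing it was 0, and 0 to 1 without 1 array. For unloaded healing against loaded controls it was 0 under every alternative run. Why these counts moved was not tested beyond the filter's own construction.

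The offset moved the log2 difference of D00680_at to between -4.09 and -2.52 in loaded healing, -3.8 and -2.39 between controls and 3.43 and 6 for the interaction, with every call kept.

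Counts over all probe sets moved more. For loaded healing 106 became 29 with a prior without the trend, 64 with median centring, 70 without a filter and 27 to 96 without 1 array. For unloaded against loaded healing 85 became 16, 42, 58 and 25 to 84 in the same order, and 137 with spike-in scaling. Quantile normalization gave 627 in place of 391 in unloaded healing against unloaded controls and 590 in place of 357 between controls. For unloaded healing against loaded controls 4 became 0 to 7. Spike-in scaling moved the median of all probe sets from -0.03 to 0.34 in loaded healing from 0.06 to -0.40 between healing groups, from -0.23 to -0.40 in unloaded healing against unloaded controls and from -0.16 to -0.70 for the interaction, and median centring moved it from 0.23 to -0.02 between controls.

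With the replicate block, members called stayed at 2 in loaded healing, 0 between healing groups, 2 in unloaded healing against unloaded controls, 3 between controls and 3 for the interaction. Arrays of 1 number share only that number in the labels: the differences of replicate 1 minus 2 correlated between groups at 0.000779 to 0.204.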
